A study of Mus musculus with 6 samples.

Results

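Synaptic adhesion molecules join the membranes of neighbouring neurons at a synapse and recruit the release machinery on one side and the receptors on the other. This report describes 50 genes of this kind, taken by gene name from the 20040 entries of the deposited expression table, and all 50 were present. The cells were primary cultures of cortical neurons taken at embryonic day 18 (E18) from mice of the C57BL/6 strain. Of the 6 mRNA libraries, 3 were from wild-type (WT) cultures and 3 were labelled as a knockout of KDM6B (KO), a demethylase that removes a repressive methyl mark from histone H3. The labels name no allele, Cre line or deleted exon, and give neither the time in culture nor the number of embryos per library. They also leave unsaid whether replicates are separate cultures, so the p-values reflect only the spread from library to library, which may be technical.

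Neurexins sit on the presynaptic membrane and reach across the cleft to neuroligins and LRRTM proteins, or to glutamate delta receptors through secreted cerebellins. LAR-type receptor phosphatases are a second presynaptic hub, with SLITRK, IL1RAPL and SALM proteins among their postsynaptic partners, while teneurins and FLRT proteins bind the latrophilin receptors. Contactins and SynCAMs are immunoglobulin-type adhesion proteins of axons and synapses.

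Values are in TPM, a measure of transcript abundance relative to the whole library, which are scaled by gene length and so can be compared between genes. Each library rested on at least 19761740 to 23503684 recovered read counts. Kdm6b itself had 30.9, 30.3 and 30.7 TPM in WT replicates 1, 2 and 3 and 11.2, 11.1 and 12.0 TPM in KO replicates 1, 2 and 3, which is 37.3% of the WT mean. The 9 pan-neuronal markers, Tubb3, Map2 and Snap25 among them, summed to between 7263 and 7351 TPM in WT and between 7512 and 7628 TPM in KO. Their directions were mixed, with 2 higher (Tubb3 and Dcx) and 2 lower (Rbfox3 and Syp). The cultures also held glial transcripts: 8 astrocyte markers summed to 2170 to 2216 TPM in WT and 2388 to 2537 TPM in KO (2 higher, Aldoc and Slc1a3, and 1 lower, Aldh1l1). Aldoc alone went from a mean of 693.7 to 965.5 TPM. Gfap, Aqp4, S100b and Gja1 had 75.6% to 91.9% of the WT level. In each of them every KO library was below every WT library, though none passed with the limma fit used below. The 8 microglial markers summed to 1.68 to 1.93 TPM in WT and 2.04 to 4.17 TPM in KO. Meningeal fibroblast markers (6 genes) summed to 36.0 to 37.0 TPM in WT and 46.5 to 59.8 TPM in KO (3 higher, 0 lower), and 8 endothelial and mural markers to 72.6 to 89.9 against 53.5 to 65.4 TPM (0 higher, 2 lower). Most of this last sum came from Acta2 (means 35.6 and 20.9 TPM, did not pass) and Cspg4 (26.1 and 22.8 TPM), also an oligodendrocyte lineage marker. The other lower gene was Kdr (9.21 and 5.62 TPM). Pdgfrb and Rgs5 had 112.8% and 138.3% of the WT level and did not pass. Pecam1, Cldn5 and Flt1 had only 1.14, 0.102 and 0.269 TPM in WT. Markers of the 2 main neuron classes were lower in KO, with 914.8 to 937.5 against 645.1 to 683.9 TPM for 8 excitatory markers (5 lower, 0 higher) and 1171 to 1209 against 881.7 to 953.9 TPM for 8 GABAergic markers (6 lower, 1 higher). In such bulk samples fewer cells of a type and less RNA per cell cannot be told apart, and the part of these shifts in the results below was not tested. Transcripts from the sex chromosomes differed too, with Xist at 74.0 ± 3.49 TPM in WT against 231.5 ± 8.34 TPM in KO (SD, n = 3 each) and the Y-linked Ddx3y at 26.1 ± 0.244 and 0.135 ± 0.0641 TPM, so that sex mix and genotype cannot be told apart. The Y-linked Eif2s3y had 43.8, 43.7 and 43.5 TPM in WT replicates 1, 2 and 3 and 0.472, 0 and 0 TPM in KO. Whether the libraries of a group share 1 pool of cells is not labelled and was not tested.

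Of the 50 adhesion genes, 8 were higher and 8 lower in KO at the 0.05 level after Benjamini-Hochberg adjustment over all 14983 tested genes (limma fit to log2 values of TPM plus 0.5), and 34 did not pass. That is 32% of the members, where 10.9% of all tested genes passed, and 12.6% of the 11780 tested genes whose mean lay within the members' own range of 4.18 to 663.6 TPM. By direction, 4.15% of all tested genes were higher and 6.74% lower, and within that range 4.65% and 7.95%. The members were chosen with earlier results of these data known, so these shares are a description and not a test. The genes that rose were Cbln4, Tenm3, Tenm2, Cntn2, Nlgn1, Lrfn5, Clstn2 and Ptprf. Those that fell were Il1rapl2, Il1rapl1, Lrrtm4, Elfn1, Lrfn2, Elfn2, Nrxn3 and Cntn6. Only Cbln4 and Il1rapl2 changed by more than 1.5-fold, and the median absolute log2 fold change of the 16 was 0.21. Cbln4, Tenm2, Tenm3, Nlgn1 and Il1rapl2 passed in every alternative fit that tested them, including each that left out 1 library, and the other 11 lost the call in at least 1 of those. The losses listed gene by gene below leave out the fit with a replicate block, which is given near the end.

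The balance of directions moved with the scaling. With TPM as deposited 50% of the members that passed were higher, and with the median of all genes centred 10 were higher and 5 lower (66.7%). Quantile normalization gave 8 higher and 5 lower (61.5%). Over all genes that passed the share moved as well: 38.1% were higher as deposited, 53.1% with median centring and 49.2% with quantile normalization. With any 1 library dropped, the counts fell to between 4 and 5 higher and between 1 and 5 lower: leaving out WT replicate 1 gave 4 and 2, WT replicate 2 or 3 each 5 and 4, KO replicate 1 gave 5 and 3, KO replicate 2 gave 5 and 1, and KO replicate 3 gave 5 and 5. The median log2 fold change of the 50 was 0.01, beside -0.02 over all tested genes, and their summed level was 5278 ± 36.6 TPM in WT and 5357 ± 48.8 TPM in KO (SD, n = 3 each). The 3 KO libraries lay above all WT libraries in 13 members and below them in 16, together 58%, where 31.7% of all tested genes showed such a separation.

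**Figure D1:**
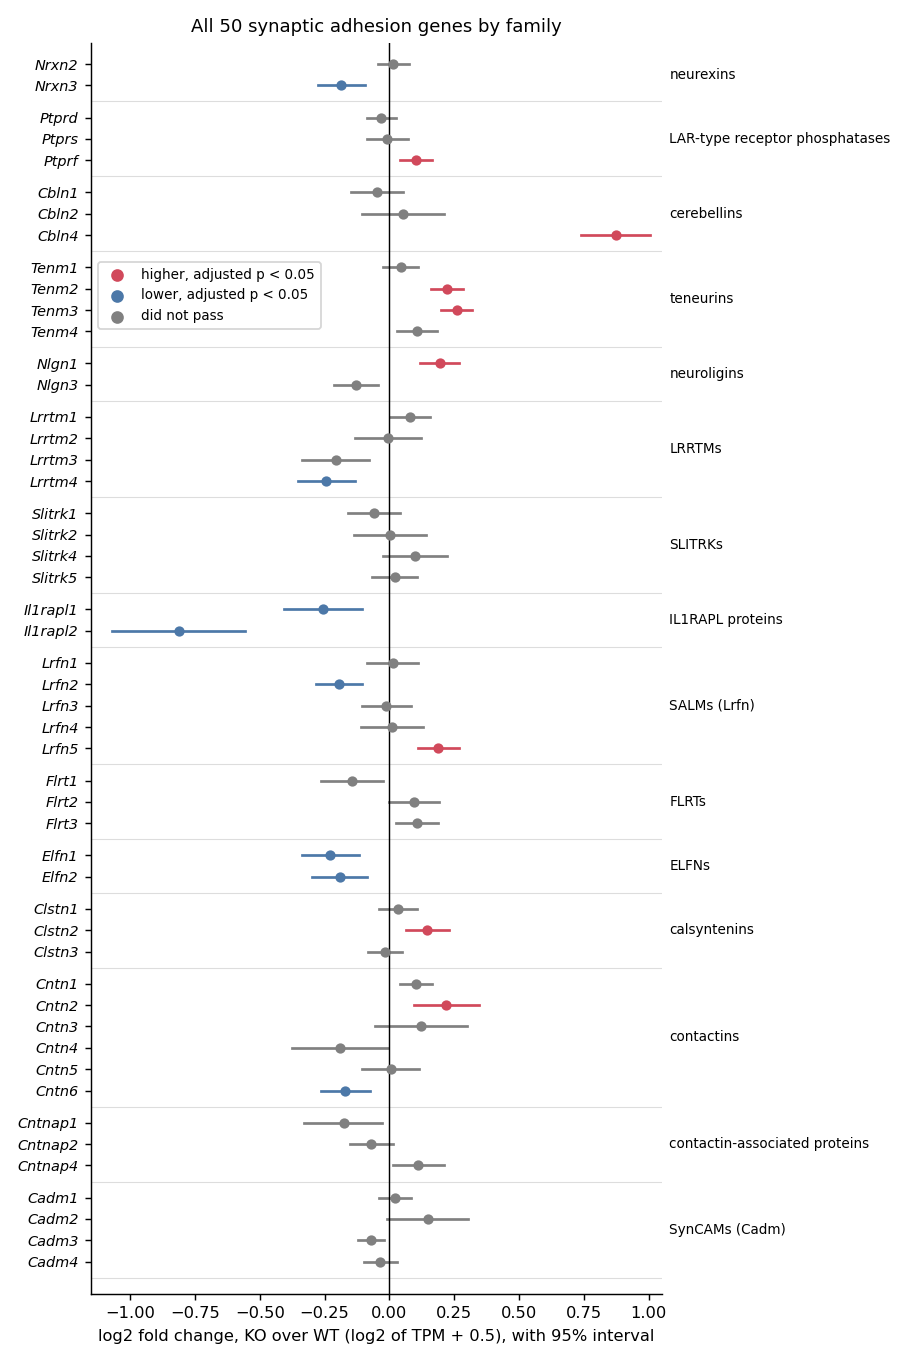
Log2 fold change of KO over WT (horizontal axis, log2 of TPM plus 0.5) for each of the 50 adhesion genes, grouped by family, with points for the estimates and lines for the 95% interval of the limma fit. Red marks the 8 genes that were higher, blue the 8 that were lower and grey the 34 that did not pass. Cbln4 and Il1rapl2 lie farthest from 0, and both IL1RAPL and both ELFN genes lie to the left.

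To show the DNA in front of the genes that moved most in their families, the 250 bases before the RefSeq transcription start (GRCm38.p6) are given for 2 genes that rose and 2 that fell, 5′ to 3′ on the strand of the gene, with each CG dinucleotide in capitals. Cbln4 lies at chr2:172043467-172043716, minus strand, Tenm3 at chr8:48674691-48674940, minus strand, Il1rapl2 at chrX:137570504-137570753, plus strand, and Elfn1 at chr5:139907616-139907865, plus strand. The Tenm3 start used here lies inside the annotated gene, which has other starts.
Cbln4: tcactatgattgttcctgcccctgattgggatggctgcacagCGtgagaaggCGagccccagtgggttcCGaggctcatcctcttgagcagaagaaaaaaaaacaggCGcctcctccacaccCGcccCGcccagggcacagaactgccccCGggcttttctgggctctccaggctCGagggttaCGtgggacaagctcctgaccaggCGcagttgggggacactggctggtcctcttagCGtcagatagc
Tenm3: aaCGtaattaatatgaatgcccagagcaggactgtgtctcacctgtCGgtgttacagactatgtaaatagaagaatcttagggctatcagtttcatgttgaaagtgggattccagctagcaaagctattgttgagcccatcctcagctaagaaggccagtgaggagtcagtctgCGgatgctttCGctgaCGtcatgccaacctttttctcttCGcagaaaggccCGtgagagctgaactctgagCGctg
Il1rapl2: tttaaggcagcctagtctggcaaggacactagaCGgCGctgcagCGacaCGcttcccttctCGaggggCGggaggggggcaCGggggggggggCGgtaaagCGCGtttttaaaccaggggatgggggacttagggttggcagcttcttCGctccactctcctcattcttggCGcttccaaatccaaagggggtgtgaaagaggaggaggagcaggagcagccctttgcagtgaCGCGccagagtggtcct
Elfn1: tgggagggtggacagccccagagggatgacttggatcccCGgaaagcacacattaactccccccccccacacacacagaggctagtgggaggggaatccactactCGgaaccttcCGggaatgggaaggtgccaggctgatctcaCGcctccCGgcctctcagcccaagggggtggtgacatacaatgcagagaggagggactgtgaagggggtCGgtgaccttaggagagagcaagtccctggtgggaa
These windows held 11, 8, 14 and 6 CG dinucleotides in that order. Promoter windows were listed for 37 of the 50 members, 50 windows in all, with a median of 8.5 CG dinucleotides, beside 6 over all 32851 listed windows. The windows of genes that rose had a median of 10 (9 windows, range 2 to 34) and those of genes that fell a median of 6 (10 windows, range 2 to 25), so that the ranges overlapped. The E-box CAGATG, the form bound by NEUROD factors, was searched on both strands as CAGATG or CATCTG and was present in 14.4% of all windows. It was found in 3 of the 50 member windows, those of Flrt3, Slitrk1 and 1 start of Ptprs, and in none of the 19 windows of genes that passed.

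Among the presynaptic organizers, the secreted cerebellins held the largest change. Cbln4, a C1q-type protein that binds neurexins and in cortex is known from somatostatin interneurons, had 21.1, 19.5 and 21.3 TPM in WT against 40.6, 38.5 and 35.8 TPM in KO. Each KO library was therefore far above each WT library. Its mean went from 20.7 ± 0.981 to 38.3 ± 2.40 TPM (SD, n = 3 each), 1.85-fold, with a log2 fold change of 0.87 ± 0.06 (SE; limma adjusted p = 2.3e-04). It rested on 378 to 448 recovered counts in each WT library and 662 to 852 in each KO library. The locus is on chromosome 2, from 172036233 to 172043466 (GRCm38). The interneuron peptide gene Sst fell, from 582.8 ± 23.4 to 425.5 ± 14.5 TPM. It belongs to the 8 GABAergic markers, of which 6 were lower and 1, Dlx1, was higher. Cbln1 had 48.5 ± 1.54 TPM in WT and 46.9 ± 2.09 in KO, and Cbln2 20.0 ± 1.78 and 20.7 ± 0.808 TPM, with overlapping libraries and 95% intervals of 0.902 to 1.036-fold and 0.928 to 1.158-fold. In WT Cbln4 and Cbln2 did not differ beyond their spread, and the share of Cbln4 in the summed cerebellin TPM was 23.2% ± 1.48 in WT and 36.1% ± 1.66 in KO.

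The neurexin Nrxn3 fell, with 73.7, 75.8 and 79.8 TPM in WT against 69.0, 67.3 and 65.2 TPM in KO. The groups did not overlap, although KO replicate 1 and WT replicate 1 were close. Its level was 87.9% of the WT mean (log2 fold change -0.19 ± 0.04 SE, limma adjusted p = 0.021), and the call was lost on leaving out replicate 2 or 3 of either group (adjusted p between 0.053 and 0.073) or the variance trend (0.069). Nrxn2 was more abundant, at 339.2 ± 4.38 TPM in WT and 342.7 ± 9.41 in KO, with an interval of 0.968 to 1.053-fold. Values of both genes sum over the long and short forms that neurexin genes make from separate promoters, which these data do not separate.

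Of the 3 LAR-type phosphatases, Ptprf was higher at 143 ± 1.11 TPM in KO against 133 ± 3.35 in WT, 1.07-fold (log2 fold change 0.10 ± 0.03 SE, limma adjusted p = 0.047). The 6 libraries had 136, 133 and 129 TPM in WT against 143, 142 and 144 TPM in KO. The groups were separate but near each other, and the call was lost on leaving out any 1 library (adjusted p between 0.066 and 0.13), without a filter (0.055) and without the variance trend (0.13). Ptprs, the most abundant of them at 319 ± 8.73 TPM in WT, had an interval of 0.941 to 1.051-fold, and Ptprd, at 133 ± 0.242 TPM, one of 0.941 to 1.017-fold.

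Teneurins, large transmembrane proteins that bind latrophilins across the synapse, stood higher in KO in all 4 genes, of which 2 passed. Tenm3 had 85.3, 83.8 and 85.7 TPM in WT against 104, 101 and 101 TPM in KO, 1.199-fold (log2 fold change 0.26 ± 0.03 SE, limma adjusted p = 0.0012). Tenm2 had 107, 109.6 and 106 TPM in WT against 126, 123 and 127 TPM in KO, 1.167-fold (log2 fold change 0.22 ± 0.03 SE, adjusted p = 0.0020). In both genes the WT libraries lay within a few TPM of each other and every KO library was above them. Tenm4 had 65.4 ± 2.11 TPM in WT and 70.4 ± 1.00 in KO (adjusted p = 0.081, or below the threshold with median centring and voom), and the X-linked Tenm1 66.8 ± 1.43 and 68.8 ± 0.417 TPM (adjusted p = 0.39). The summed teneurin level was 324 ± 2.96 TPM in WT and 366 ± 2.87 TPM in KO, 112.9% of WT.

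**Figure D2:**
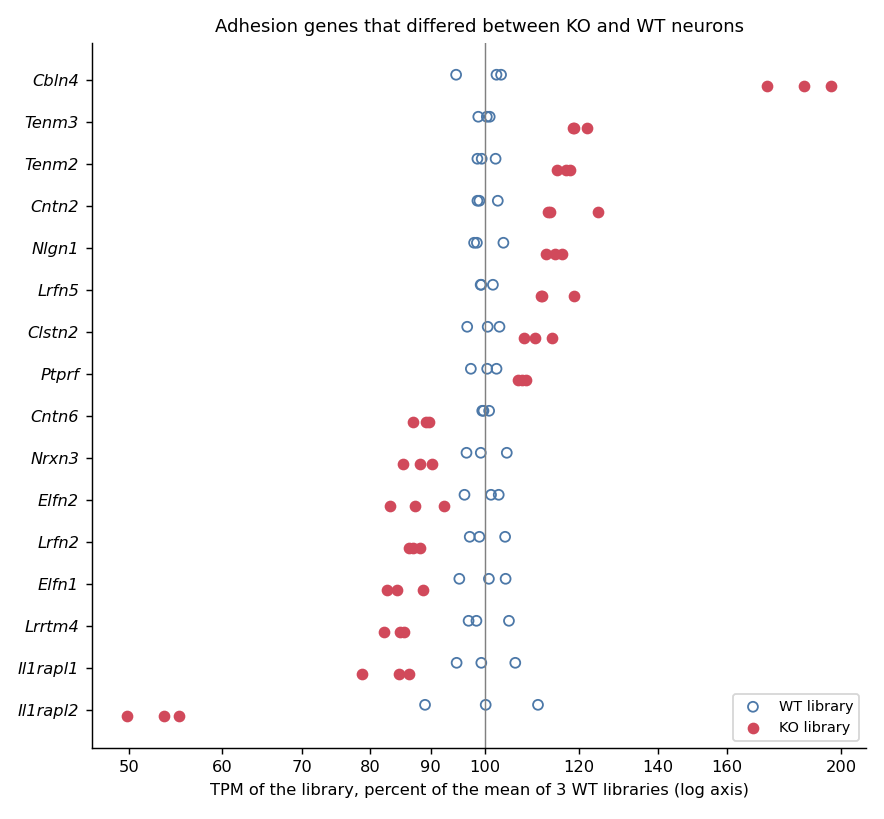
TPM of each library as percent of the mean of the 3 WT libraries (log axis) for the 16 adhesion genes that passed, with open circles for WT and filled circles for KO libraries. No gene has overlapping groups, which the test favours, and in all but Cbln4 and Il1rapl2 the KO libraries stay within 1.3-fold of the WT mean.

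On the postsynaptic side 1 of the 2 neuroligins passed, and whether their changes differ was not tested. Nlgn1, found mainly at excitatory synapses, had 60.3, 60.6 and 63.9 TPM in WT against 71.5, 70.6 and 69.4 TPM in KO. All KO libraries were above all WT libraries, by 1.145-fold on average (log2 fold change 0.19 ± 0.03 SE, limma adjusted p = 0.0096). The X-linked Nlgn3 was the more abundant, at 129.5, 123 and 129.7 TPM in WT against 115, 113 and 122 TPM in KO. The groups did not overlap but came close to each other, and the gene did not pass with limma at 91.5% of WT (adjusted p = 0.062). It passed with voom (0.011), with TPM rescaled without Rn45s, Bc1 and very short loci, and without KO replicate 3. The summed neuroligin level was 189 ± 5.08 TPM in WT and 187 ± 3.59 TPM in KO, with Nlgn1 at 32.6% ± 0.72 of it in WT and 37.7% ± 1.2 in KO.

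Of the LRRTM genes, which encode leucine-rich repeat ligands of neurexins and heparan sulfate proteoglycans, Lrrtm4 fell. Its values were 22.6, 22.3 and 24.1 TPM in WT against 19.6, 19.5 and 18.9 TPM in KO, 84.1% of the WT mean (log2 fold change -0.24 ± 0.05 SE, limma adjusted p = 0.017). All KO libraries were below all WT libraries, and the call was lost on dropping WT replicate 1 or KO replicate 2 or 3 (adjusted p between 0.054 and 0.061). Lrrtm3, a gene inside an intron of another gene, had 35.6 ± 1.52 TPM in WT and 30.8 ± 2.01 in KO and did not pass with limma on these values (adjusted p = 0.056). It passed with voom (0.0055), with a filter at 2 TPM, with TPM rescaled in the same way and with a robust variance trend. Lrrtm1 and Lrrtm2 had 105.7% and 99.7% of the WT level.

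Both IL1RAPL genes, which encode receptors for the phosphatase PTPRD, fell. Il1rapl2, on the X chromosome at 137570608 to 138846946 (GRCm38), had 4.87, 6.07 and 5.48 TPM in WT against 2.73, 2.93 and 3.02 TPM in KO, 52.8% of the WT mean (log2 fold change -0.81 ± 0.11 SE, limma adjusted p = 0.0037). The groups were well apart, with 87 to 105 recovered counts in each WT library and 49 to 58 in each KO library. By mean TPM it was the least abundant of the 50. Il1rapl1, also X-linked, had 14.3, 16.0 and 15.0 TPM in WT against 12.8, 13.02 and 11.9 TPM in KO. These groups were apart by little more than their own spread, at 83.2% of the WT mean (log2 fold change -0.26 ± 0.06 SE, adjusted p = 0.044). Its call was lost on leaving out any 1 library (adjusted p between 0.067 and 0.12), with median centring (0.060) or quantile normalization (0.077), without a filter (0.071) and without the variance trend (0.064). The members on X were 6: these 2 fell, and Tenm1, Nlgn3, Slitrk2 and Slitrk4 did not pass. Of all 499 tested X-linked genes 5.01% were higher and 6.81% lower, and a part of the different sex mix in the fall of either gene cannot be told apart from the genotype.

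The SALM genes, named Lrfn, went in opposite directions. Lrfn5, whose protein binds LAR-type phosphatases, had 68.4, 70.03 and 68.5 TPM in WT against 82.0, 76.9 and 77.0 TPM in KO, 1.141-fold (log2 fold change 0.19 ± 0.03 SE, limma adjusted p = 0.012). Lrfn2, whose protein binds the scaffold PSD-95, had 39.3, 37.4 and 36.7 TPM in WT against 32.7, 32.9 and 33.3 TPM in KO, 87.1% of the WT mean (log2 fold change -0.20 ± 0.04 SE, adjusted p = 0.017). In both genes the groups were apart, and whether they differ from each other in their change was not tested. For Lrfn5 the call was lost on dropping WT replicate 1 (adjusted p = 0.055), and for Lrfn2 on dropping WT replicate 1, KO replicate 1 or KO replicate 2 (between 0.056 and 0.064). Lrfn1, Lrfn3 and Lrfn4 had 99.2% to 100.8% of the WT level with overlapping libraries, and the family sum was 277 ± 10.2 TPM in WT and 282 ± 2.95 in KO.

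The ELFN proteins sit on the postsynaptic side and bind group III metabotropic glutamate receptors of the presynaptic terminal, and both genes fell. Elfn1, known from somatostatin interneurons, had 37.1, 35.9 and 33.9 TPM in WT against 30.04, 29.5 and 31.6 TPM in KO, 85.2% of the WT mean (log2 fold change -0.23 ± 0.05 SE, limma adjusted p = 0.022). Elfn2 had 60.8, 56.8 and 59.9 TPM in WT against 51.6, 49.2 and 54.6 TPM in KO, 87.6% of the WT mean (log2 fold change -0.19 ± 0.05 SE, adjusted p = 0.037). WT replicate 3 and KO replicate 3 were the closest for Elfn1, and WT replicate 2 and KO replicate 3 for Elfn2. For Elfn1 the call was lost on dropping replicate 1 or 2 of either group (adjusted p between 0.067 and 0.081) and without the variance trend (0.055). For Elfn2 it was lost on dropping WT replicate 1 or 3 or KO replicate 1 or 2 (between 0.093 and 0.12), with median centring (0.059) or quantile normalization (0.054), without a filter (0.055) and without the variance trend (0.094). Beside them stand the 8 GABAergic markers given above, of which 6 were lower and 1 higher. Lhx6 had 26.8 TPM in WT and 19.5 TPM in KO, and Dlx1, the higher one, 43.1 and 54.1 TPM. The part of these markers' shifts in the fall of the ELFN genes was not tested.

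None of the 4 SLITRK genes and none of the 3 FLRT genes passed with limma, while with voom on the recovered counts no SLITRK gene and all 3 FLRT genes passed. The SLITRK genes had no unadjusted p under 0.05, and the FLRT genes had 2. Slitrk1, the most abundant of its family, had 65.7 ± 2.04 TPM in WT and 63.0 ± 3.03 in KO, and the family sum was 184 ± 0.864 TPM in WT and 185 ± 7.40 in KO. Flrt3 and Flrt2 had 107.8% and 106.8% of the WT level and Flrt1 90.2% (adjusted p = 0.097, 0.20 and 0.12).

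Calsyntenins, cadherin-type proteins of the postsynaptic membrane, held the most abundant member of all. Clstn1 had 665, 677 and 626 TPM in WT against 663, 669.9 and 679.8 TPM in KO, with overlapping groups and an interval of 0.973 to 1.076-fold. Clstn2 was far less abundant and rose, from 62.5, 61.1 and 58.7 TPM to 69.3, 65.5 and 67.0 TPM, 1.106-fold (log2 fold change 0.14 ± 0.04 SE, limma adjusted p = 0.041). Its groups were apart, but the call was lost on leaving out any 1 library (adjusted p between 0.065 and 0.12), without a filter (0.053) and without the variance trend (0.096). Clstn3 had 98.8% of the WT level.

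The contactins split as well. Cntn2, an axonal glycoprotein that pairs with the product of Cntnap2, had 18.4, 17.7 and 17.8 TPM in WT against 20.3, 20.4 and 22.4 TPM in KO, 1.171-fold (log2 fold change 0.22 ± 0.05 SE, limma adjusted p = 0.038). Cntn6 had 21.8, 21.9 and 22.1 TPM in WT against 19.1, 19.7 and 19.6 TPM in KO, 88.6% of the WT mean (log2 fold change -0.17 ± 0.04 SE, adjusted p = 0.037). The Cntn6 libraries lay close together within each group, and those of Cntn2 less so in KO. Both calls were lost on leaving out any 1 library (adjusted p between 0.062 and 0.10 for Cntn2 and between 0.087 and 0.11 for Cntn6). Cntn2 also lost its call without a filter (0.057) and without the variance trend (0.061), and Cntn6 with median centring (0.064) or quantile normalization (0.082). Cntn1, which makes up 84.2% of the contactin TPM in WT, had 467 ± 4.55 TPM in WT and 502 ± 16.3 TPM in KO and just missed the threshold (1.075-fold, adjusted p = 0.051). Cntn3, Cntn4 and Cntn5 had 108.9%, 86.7% and 100.3% of the WT level and did not pass.

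Of the contactin-associated proteins, Cntnap1, Cntnap2 and Cntnap4 had 88.5%, 95.2% and 108.2% of the WT level (adjusted p = 0.13, 0.27 and 0.14). The groups did not overlap in any of the 3, and none passed; 2 had an unadjusted p under 0.05, and Cntnap1 passed with voom. The SynCAM genes were abundant, with Cadm3 at 472 ± 8.55 TPM and Cadm1 at 357 ± 9.99 TPM in WT. Cadm3 had 95.2% of the WT level (adjusted p = 0.080), Cadm1 an interval of 0.971 to 1.061-fold, and Cadm2 and Cadm4 had 110.9% and 97.6% of the WT level. None of the 4 passed with limma, 1 had an unadjusted p under 0.05, and Cadm2 passed with voom.

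**Figure D3:**
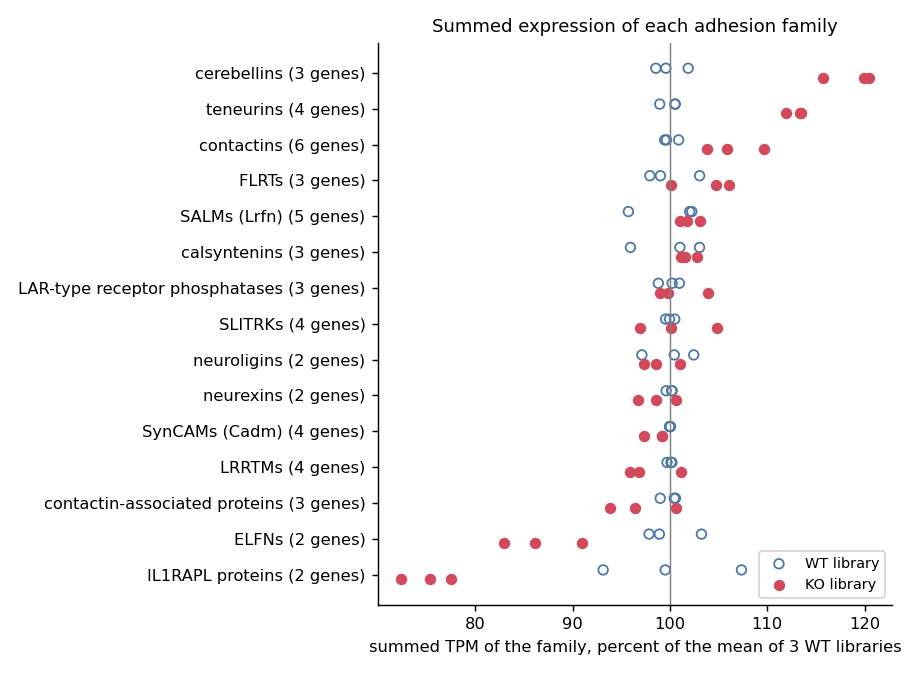
Summed TPM of each adhesion family in each library, as percent of the mean of the 3 WT libraries, with open circles for WT and filled circles for KO. The cerebellin (118.7%), teneurin (112.9%) and contactin (106.5%) sums lie above WT without overlap, and the SynCAM (98.6%), ELFN (86.7%) and IL1RAPL (75.1%) sums below it. Of the cerebellins only Cbln4 passed, and Cntn1, which did not pass, makes up 84.2% of the contactin sum in WT. No reference share was made for sums, and of single tested genes 31.7% were separated.

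For the 34 members that did not pass, the fit to TPM as deposited gives an interval for the difference between the groups of libraries. These intervals rest on the spread between libraries, which may be technical, and do not separate genotype from sex mix or cell make-up. Each is for a single gene, without adjustment for the number of genes. The 95% intervals of all 34 lay within 1.3-fold of no change in either direction, those of 28 within 1.2-fold and those of 15 within 1.1-fold. In the plot of level against change, the 8 most abundant members, Clstn1, Cadm3, Cntn1, Cadm1, Nrxn2, Ptprs, Cadm4 and Clstn3, all lie among those that did not pass in the plotted fit. Of these, Cntn1 passed in 6 alternatives: voom, and limma with median centring, a pseudocount of 0.1, a filter at 2 TPM, rescaled TPM or a robust variance trend.

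**Figure D4:**
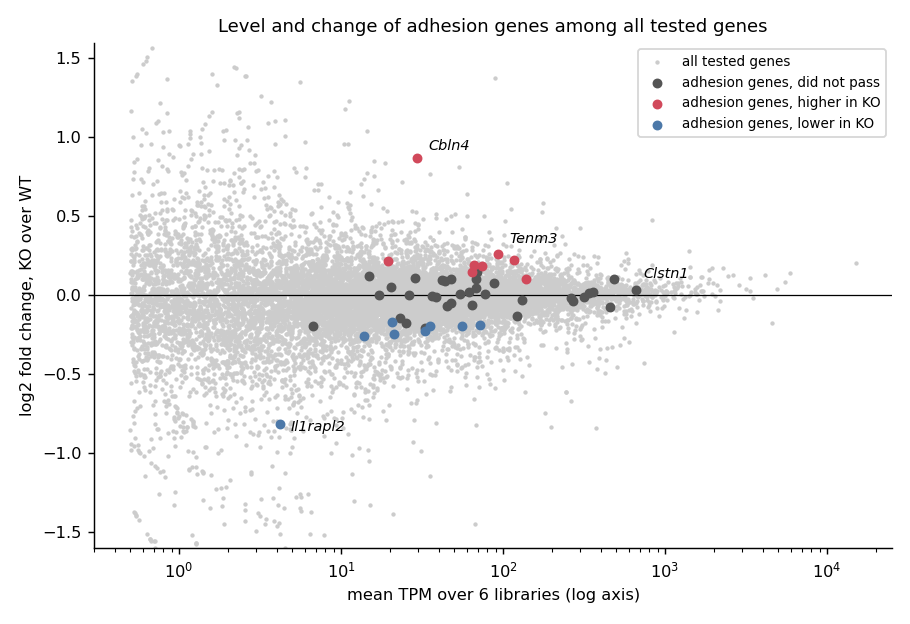
Log2 fold change of KO over WT against the mean TPM of the 6 libraries (log axis), with grey points for all 14983 tested genes and larger points for the 50 adhesion genes by result. The vertical axis ends at 1.6 in either direction, which leaves 74 tested genes outside. Clstn1 lies at the right near 0, and Cbln4 and Il1rapl2 lie apart from the other adhesion genes.

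A second list held 50 partners and adaptors of these proteins, chosen for their known roles with earlier results of these data in view. All were found and tested, 6 latrophilin and BAI genes and 2 nectin genes under their older names. Of them 5 were higher and 10 lower (30%, beside 10.9% of all tested genes), with a median log2 fold change of -0.05. Given how the list was chosen, this share is a description and not a test. Among soluble and membrane partners at glutamatergic synapses, the AMPA receptor-clustering pentraxin Nptx1 fell from 37.9, 35.9 and 37.1 TPM to 26.1, 26.0 and 27.3 TPM, 71.6% of WT (limma adjusted p = 5.8e-04). Its receptor gene Nptxr fell from 497, 501 and 476 TPM to 392, 385 and 394 TPM, 79.5% (adjusted p = 3.8e-04). In both genes the spread within groups was small beside the difference. C1ql3, a secreted relative of the cerebellins, fell from 116 ± 6.17 to 83.5 ± 4.52 TPM (adjusted p = 0.0014), and the neurexin ligand Nxph1, enriched in interneurons, from 90.1 ± 3.25 to 68.7 ± 1.59 TPM (adjusted p = 7.9e-04). The receptor gene Grid1 had 93.8% of the WT level and did not pass (adjusted p = 0.16).

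Partners of the teneurins and FLRT proteins moved unequally. The latrophilin Adgrl2 rose from 84.5, 84.2 and 81.1 TPM to 97.8, 99.4 and 96.7 TPM, 1.176-fold (limma adjusted p = 0.0023), while Adgrl1 and Adgrl3 had 94.9% and 102.7% of the WT level and did not pass with limma. Adgrl1 passed with voom (adjusted p = 0.047). Unc5a, a receptor for netrins and FLRT proteins, fell to 87.0% of WT (adjusted p = 0.0073), with 48.8 ± 0.496 TPM in WT and 42.4 ± 0.808 in KO. Of the metabotropic receptors bound by ELFN proteins, Grm8 rose from 6.75, 6.49 and 7.75 TPM to 10.46, 9.87 and 9.38 TPM, 1.415-fold (adjusted p = 0.013), a call lost on dropping WT replicate 1 (0.055), while Grm7 and Grm4 had 102.1% and 98.2% of WT. The glypican Gpc4, a proteoglycan ligand of Lrrtm4 protein encoded on X, fell to 78.01% of WT (adjusted p = 0.018), a call lost on dropping WT replicate 1, KO replicate 1 or KO replicate 3 (between 0.058 and 0.069) and without the variance trend (0.069).

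Of the 8 partners of LAR-type phosphatases none passed with limma, Ntrk3 being nearest at 92.5% of WT (adjusted p = 0.0501), and 3 had an unadjusted p under 0.05. With voom, Ntrk3 and Ppfia4 passed. Among the immunoglobulin proteins, Ncam2 rose 1.24-fold (71.2 ± 1.28 against 57.4 ± 1.45 TPM, limma adjusted p = 0.0013) and Igsf21, a ligand of Nrxn2 protein, 1.182-fold (109 ± 3.39 against 92.6 ± 2.29 TPM, adjusted p = 0.0037). Nectin1 fell to 81.3% of WT (72.5 ± 2.32 against 89.2 ± 2.78 TPM, adjusted p = 0.0023). Of 8 cytoplasmic adaptors 1 passed with limma on TPM as deposited, Lin7b at 89.1% of WT (adjusted p = 0.021). The call was lost on dropping WT replicate 1 or 2 or KO replicate 2 or 3 (between 0.065 and 0.075), without the variance trend (0.065) and with voom (0.12). With voom Lin7a and Lin7c, at 109.2% and 106.3% of WT, passed instead (0.0055 and 0.028), and Lin7a also passed with limma after median centring (0.040) or quantile normalization (0.048). Cask and Apba1, which bind neurexin tails or their complex, had 99.4% and 101.2% of the WT level.

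**Figure D5:**
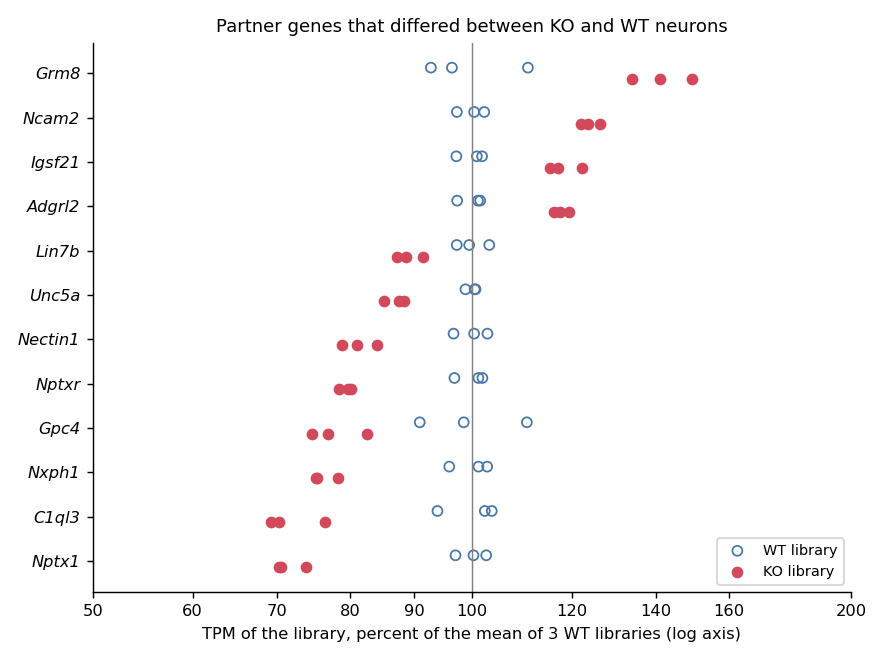
TPM of each library as percent of the mean of the 3 WT libraries (log axis) for the 12 partner genes with the smallest p among the 15 that passed, with open circles for WT and filled circles for KO. The 4 genes that rose have all KO libraries above all WT libraries, and Nptx1 and C1ql3 lie lowest.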

How the data were processed

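The mRNA of 6 libraries, 3 per group, was analysed from 1 deposited table. Its values are TPM made by the authors: each column sums to 1000000, although the table is named for FPKM. The submitters' processing notes name edgeR, featureCounts, Picard 1.127, TopHat, FastQC 0.11.2 and bcl2fastq 2.17 and the build mm10, with no role or order. The annotation, strand setting and scaling step are not stated there, so an antisense partner's reads cannot be separated from those of a gene it overlaps.

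The 14983 genes averaging 0.5 TPM or more were tested on log2 of TPM plus 0.5 with limma 3.58.1 (R 4.3.3; moderated variances with a mean trend, two-sided, no covariates), with Benjamini-Hochberg adjustment over all of them. Fold changes on this scale understate low genes; fold or percent of WT is the ratio of mean TPM. Whole counts behind the TPM were recovered from the ratios between libraries for 100.0% of 19369 entries above 0 (tolerance 0.001 counts plus 5e-09 of the value). They are the smallest that fit, hence lower bounds, and served for depth and for 1 alternative (voom). Intervals are at 95%. The test and the recovery were tested on simulated data.

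Members that passed are named with all values, others by level; of the partner list the 12 with the smallest p are named, others as values. Members and lists were chosen with earlier results of these data known. Positions are from GENCODE M21 (GRCm38, the build of mm10), promoters from RefSeq. The alternatives were other pseudocounts, filters, scalings and variance models, a replicate block, voom, leaving out X and Y genes and leaving out each library.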

Additional observations from a re-analysis of the deposited data

How the results depend on the processing

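All 16 members that passed and all 12 named partners kept their direction in every alternative, and 210 of 286 values for those members and 202 of 215 for those partners stayed past the threshold. The counts of members higher and lower, 8 and 8, became 5 and 6 when no filter was applied, 5 and 4 with no trend in the variance, and 13 and 12 under voom on the recovered counts. With median centring or quantile normalization 5 were lower. Without 1 library 4 to 5 were higher and 1 to 5 lower. The partner counts of 5 and 10 became 9 higher with voom and 6 lower without the variance trend, and 3 to 5 and 6 to 9 without 1 library. The replicate block, which fits the number in the titles as a pair, gave 5 members higher and 2 lower, and 6 partners lower. With it 9 of the 16 members lost the call (limma adjusted p between 0.061 and 0.11). They were Nrxn3, Ptprf, Lrrtm4, Il1rapl1, Lrfn2, Elfn1, Clstn2, Cntn2 and Cntn6. The named partners Gpc4 and Lin7b lost it too (0.062 and 0.066). No shared deviation of same-numbered libraries was seen, with correlations of 0.008, -0.051 and 0.011. The labels do not say whether libraries with the same number belong together, and these correlations cannot settle it. Leaving out X and Y genes left 8 higher and 6 lower. The fits without 1 library also rest on fewer libraries, and how far the lost calls follow from that was not tested. Among the members, recovered counts were lowest for Il1rapl2, with 49 to 58 in each KO library.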

Other observations

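Several adhesion genes have very long loci. Of the 15 members whose GENCODE locus spans at least 500 kb, a length chosen after the values were seen, 4 were higher and 4 lower (53.3%). The 4 higher were Tenm2 (1229.3 kb), Nlgn1 (906.2 kb), Tenm3 (616.3 kb) and Clstn2 (588.8 kb). The 4 lower were Nrxn3 (1612.1 kb), Il1rapl1 (1374.8 kb), Il1rapl2 (1276.3 kb) and Lrrtm4 (791.3 kb). Of the 35 shorter members 4 were higher and 4 lower (22.9%). In the whole table, of 204 tested genes of at least 500 kb 15.7% were higher and 16.2% lower, together 31.9%, where 10.9% of all tested genes passed. The median log2 fold change of these 204 genes was 0.00, and their median absolute log2 fold change 0.12, beside 0.08 over all tested genes. Directions were thus mixed among the long genes, and no test of this pattern was made.

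Cbln4, with the largest rise of the 50, has a locus of 7.2 kb, and Il1rapl2, with the largest fall, has one of 1276.3 kb. Elfn1 and Elfn2, with 66.8 and 51.4 kb, both fell. The longest member, Ptprd, with 2270.7 kb, had 97.8% of the WT level and did not pass.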
